A study of Mus musculus with 14 samples.

Results

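Neurotrophins and their receptors were followed through the hippocampus of mice prone to lupus and of mice lacking the kinase activity of IRAK4. The set held 7 of the 55536 Ensembl genes listed in the gene count table. Its members were the ligands Bdnf and Ntf3, the receptors Ntrk2, Ntrk3, Ngfr and Sort1, and the secreted product Vgf. They were found by matching each Ensembl identifier to its symbol in GENCODE M21, and all 7 were found and passed the filter on low counts. The 11 transcripts of Bdnf and the 10 transcripts of Ntrk2 in the transcript count table were added, because these genes are read from several start sites or end in proteins of different function.

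Hippocampal RNA from 14 mice aged 10 months was sequenced, and each mouse gave 1 library. The MRL group (n = 4) was B6.MRL-Faslpr/J, which carries the lpr mutation of the death receptor gene Fas and develops a lupus-like disease, and the MRL-IRAK4-KD group (n = 4) was the same strain crossed to mice whose IRAK4 is kinase-dead. The controls were C57BL/6 mice (n = 3) and IRAK4-KD mice (n = 3), which by their labels carry the kinase-dead IRAK4 without lpr. All 4 groups shared the C57BL/6 background, and the mice were perfused with cold buffer before dissection. IRAK4 is a kinase that relays signals from Toll-like and interleukin-1 receptors, and the comparisons asked what lpr did in the presence and absence of that activity and what the kinase-dead allele did in each background.

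Neurotrophins are small growth factors that neurons release as precursors, which are cleaved to the mature form. BDNF binds the tyrosine kinase TrkB, encoded by Ntrk2, and NT-3 binds TrkC, encoded by Ntrk3, whereas the precursors bind p75NTR, encoded by Ngfr, together with sortilin, encoded by Sort1. In the hippocampus BDNF and TrkB are known for their part in synaptic plasticity and memory, and Vgf, a gene that neurotrophins induce, encodes a precursor of secreted peptides.

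The libraries held 279941472 to 572398312 deposited counts. Markers of dentate granule cells summed to 359–559 CPM (counts scaled to the library's total after its adjustment by the TMM normalization factor). Markers of CA pyramidal neurons summed to 414–682 CPM, and no gene of either list was at 0 in any library. Irak4 RNA does not check the kinase-dead allele, but Fas checks lpr: the transcript Fas-201 had 345–584 counts in the C57BL/6 libraries and 0 in all 8 lpr libraries. In the library labelled IRAK4-KD replicate 3 Fas-201 also had 0 counts, while Fas-204, at 268–964 counts in the lpr libraries and at most 7 in the other non-lpr libraries, had 514. Its Fas transcripts thus go against its label as a library without lpr. It was kept as labelled, so that its genotype is in doubt in every comparison with IRAK4-KD. The same library held 465 CPM of striatal markers against 81.6–169 in the others, with all 7 genes of that list highest there. MRL-IRAK4-KD replicate 4 stood apart from every other library, with a score of 152 on the first principal component against −28.4 to 8.82, and with 1.40 counts per sequenced read against 1.80–2.08. Its choroid plexus markers summed to 7776 CPM against 65.7–1831 in the other libraries, 5 of the 6 genes being highest there and none at 0 anywhere. Results that rest on either library are therefore given with and without it, and the part of these differences in the results was not tested.

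Ordered by their level per transcript length, the members spanned a wide range. In TPM (counts per base of transcript, scaled to a fixed total per library, mean ± SD over all 14 libraries), Sort1 was at 157 ± 25.5, Ntrk2 at 132 ± 15.1, Vgf at 98.1 ± 17.2 and Ntrk3 at 64.4 ± 12.2, and the ranges of neighbours in this part of the order overlapped. Bdnf followed at 22.7 ± 3.48, Ntf3 at 9.10 ± 1.34 and Ngfr at 0.917 ± 0.229, and here no ranges overlapped: Bdnf lay between 15.0 and 26.8 TPM, Ntf3 between 6.73 and 10.7, and Ngfr between 0.436 and 1.22. Outside the set, Sorl1, a sorting receptor related to sortilin, was at 54.2 TPM. In bulk tissue fewer cells of a type and less RNA per cell cannot be told apart, and this holds for every value that follows.

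Among the ligands, Bdnf did not separate the groups. In the 4 MRL libraries it was at 53.8, 52.1, 43.4 and 30.7 CPM, and in the MRL-IRAK4-KD libraries at 41.6, 43.2, 51.7 and 47.4 CPM. The C57BL/6 libraries had 35.9, 38.8 and 50.6 CPM and the IRAK4-KD libraries 47.5, 43.9 and 43.8 CPM. The highest and the lowest of all 14 values both came from MRL mice, so that the spread of that group (45.0 ± 10.5, SD, n = 4) enclosed the other 3. The log2 difference between MRL and MRL-IRAK4-KD was −0.03 ± 0.16 (SE), with an adjusted p of 0.959 in edgeR's quasi-likelihood test, and its 95% interval ran from −0.34 to 0.28. The differences in the other 3 comparisons were 0.11 for MRL against C57BL/6, 0.11 for IRAK4-KD against C57BL/6 and 0.03 for MRL-IRAK4-KD against IRAK4-KD.

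Ntf3, which encodes NT-3 and in the adult hippocampus is best known from dentate granule cells, was a low member. Its values were 6.49, 5.28, 4.86 and 4.60 CPM in MRL and 6.46, 5.83, 6.73 and 7.86 CPM in MRL-IRAK4-KD. C57BL/6 had 5.83, 4.67 and 5.37 CPM, and IRAK4-KD had 6.43, 6.57 and 6.46 CPM. Both groups with the kinase-dead allele had the higher means (6.72 ± 0.849 and 6.48 ± 0.0742 against 5.31 ± 0.838 and 5.29 ± 0.584), but MRL replicate 1 lay within the MRL-IRAK4-KD range. The log2 difference between MRL and MRL-IRAK4-KD was −0.34 ± 0.14, with an unadjusted p of 0.0263 and an adjusted p of 0.437 (edgeR), and it was −0.25, adjusted p 0.596, without MRL-IRAK4-KD replicate 4. The IRAK4-KD libraries all lay above the C57BL/6 libraries, at a log2 difference of 0.29 ± 0.16 with an adjusted p of 1 (edgeR), and of 0.30 without the library labelled IRAK4-KD replicate 3. An exact permutation test of 3 libraries against 3 cannot give a p under 0.1, and it gave 0.1.

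Ntrk2, the BDNF receptor, had 525, 456, 484 and 574 CPM in MRL and 469, 471, 456 and 343 CPM in MRL-IRAK4-KD. It had 480, 466 and 422 CPM in C57BL/6 and 442, 478 and 472 CPM in IRAK4-KD. Outside MRL-IRAK4-KD replicate 4, the lowest of all, and MRL replicates 1 and 4, the highest, the libraries lay between 422 and 484 CPM. The log2 difference between MRL and MRL-IRAK4-KD was 0.23 ± 0.11 with an adjusted p of 0.442 (edgeR), the groups overlapped, and without MRL-IRAK4-KD replicate 4 the difference was 0.14 ± 0.08 with an adjusted p of 0.653 (edgeR). Between other groups the log2 difference of Ntrk2 stayed under 0.20.

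Ntrk3, the NT-3 receptor, was the member in which 1 group lay apart from the rest. The IRAK4-KD libraries had 362, 308 and 353 CPM and the C57BL/6 libraries 304, 262 and 263 CPM. MRL had 259, 243, 237 and 242 CPM, and MRL-IRAK4-KD had 262, 269, 277 and 240 CPM. All 3 values labelled IRAK4-KD lay above all 11 others, the one nearest being C57BL/6 replicate 1. Against IRAK4-KD, MRL-IRAK4-KD was lower at a log2 difference of −0.38 ± 0.09 (a fold of 0.769), with an unadjusted p of 0.0012 and an adjusted p of 0.323 in edgeR. DESeq2 put the same difference at −0.39 with an adjusted p of 0.0151. limma-voom, run here with quality weights that count libraries unequally, put it at −0.29 with an adjusted p of 0.0541. Whether Ntrk3 passed 0.05 thus depended on the tool and its weights. The difference was −0.35 without the library labelled IRAK4-KD replicate 3, −0.34 without MRL-IRAK4-KD replicate 4 and −0.32 without both, with adjusted p of 0.891, 0.144 and 0.411 in edgeR. Against C57BL/6, IRAK4-KD was higher by a log2 difference of 0.30 ± 0.10, with an unadjusted p of 0.0092 and an adjusted p of 1 (edgeR), and MRL against C57BL/6 stood at −0.17 ± 0.09 with no overlap and an adjusted p of 0.920 (edgeR). MRL and MRL-IRAK4-KD overlapped at a log2 difference of −0.10 ± 0.09.

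**Figure D1:**
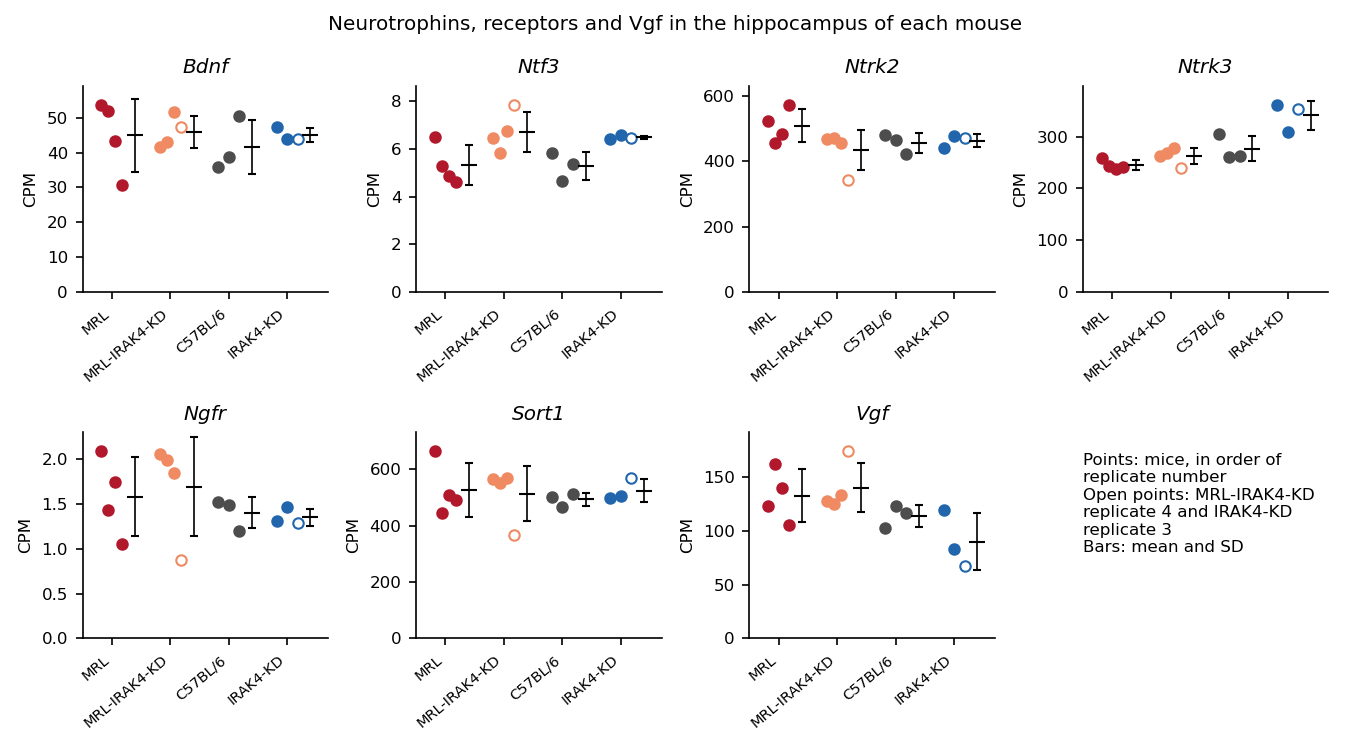
Expression of the 7 members in each library, in CPM on linear axes that start at 0, with 1 point per mouse, open for MRL-IRAK4-KD replicate 4 and the library labelled IRAK4-KD replicate 3, and a bar for the mean ± SD of each group. Ntrk3 sits between 308 and 362 CPM in the IRAK4-KD libraries and at or below 304 CPM in all others, while Ntrk2, Sort1 and Vgf each have 1 MRL-IRAK4-KD library, replicate 4, away from the other 3.

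Ngfr, which encodes p75NTR, was near the lower end of what the files could resolve for a member, at 271–998 counts per library. It had 2.09, 1.44, 1.75 and 1.06 CPM in MRL and 2.06, 2.00, 1.84 and 0.873 CPM in MRL-IRAK4-KD, where replicate 4 was the lowest of all libraries. C57BL/6 lay between 1.20 and 1.52 CPM and IRAK4-KD between 1.29 and 1.46 CPM, within the range of the MRL libraries. The log2 difference between MRL and MRL-IRAK4-KD was −0.10 ± 0.26 (adjusted p 0.910, edgeR), and the largest was 0.32 ± 0.29 between MRL-IRAK4-KD and IRAK4-KD. Without MRL-IRAK4-KD replicate 4 the first was −0.31 (adjusted p 0.677, edgeR) and the second 0.54 ± 0.21 (adjusted p 0.494, edgeR), with the other MRL-IRAK4-KD libraries all above the IRAK4-KD libraries.

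Sort1, the most abundant member per length, encodes sortilin, which binds proneurotrophins together with p75NTR and also sorts BDNF within the cell. MRL had 664, 443, 508 and 492 CPM and MRL-IRAK4-KD had 564, 551, 568 and 367 CPM. MRL replicate 1 was the highest library of the series and MRL-IRAK4-KD replicate 4 the lowest, and without the latter the MRL-IRAK4-KD mean was 561 ± 8.74 CPM (SD, n = 3). C57BL/6 lay between 466 and 511 CPM and IRAK4-KD between 497 and 570.2 CPM. With all libraries, no log2 difference of Sort1 between groups was beyond ±0.10. Over the alternative settings it ran from −0.14 to 0.12 between MRL and MRL-IRAK4-KD. Between MRL-IRAK4-KD and IRAK4-KD it ran from −0.09 to 0.16. Without the 2 libraries that stand apart, an exact permutation test of the latter gave 0.1, the smallest p possible.

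Vgf encodes the precursor of secreted peptides found in neurons and endocrine cells. It was at 123, 162, 140.1 and 105 CPM in MRL and at 128, 125, 133 and 174 CPM in MRL-IRAK4-KD. C57BL/6 had 102, 123 and 116 CPM, and IRAK4-KD had 119, 82.6 and 67.7 CPM. Every MRL-IRAK4-KD library lay above every IRAK4-KD library, the highest value of the series being MRL-IRAK4-KD replicate 4 and the lowest the library labelled IRAK4-KD replicate 3. The log2 difference between these groups was 0.64 ± 0.19 (1.56-fold), with an unadjusted p of 0.0051 and an adjusted p of 0.497 in edgeR, and the adjusted p was 0.123 in DESeq2 and 0.0779 in limma-voom. Without both libraries that stand apart the log2 difference was 0.35 with an adjusted p of 0.772 (edgeR), so its size rested on them. Removing the 119 CPM of IRAK4-KD replicate 1 instead gave 0.90 with an adjusted p of 0.160 (edgeR). IRAK4-KD against C57BL/6 stood at −0.34 ± 0.20, or −0.17 without the library labelled IRAK4-KD replicate 3, and MRL against C57BL/6 at 0.22 ± 0.19.

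**Figure D2:**
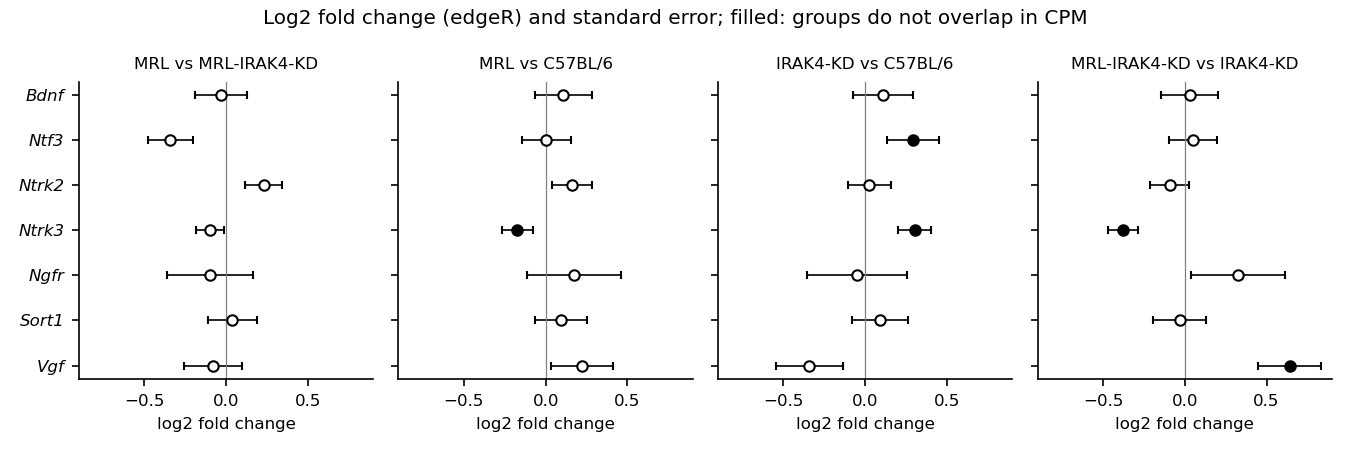
Log2 fold change of each member in the 4 comparisons between groups, with bars for ±1 SE from edgeR and filled points where the 2 groups do not overlap in CPM. Most points lie within 0.20 of 0, and the widest departures are Vgf at 0.64 and Ntrk3 at −0.38, both in MRL-IRAK4-KD against IRAK4-KD.

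Across the set, edgeR called 0 of 7 members at an adjusted p under 0.05 in any comparison. Of all 38070 genes tested, it called 0.0972% in MRL against MRL-IRAK4-KD, 0% in MRL against C57BL/6, 0.147% in IRAK4-KD against C57BL/6 and 0.0735% in MRL-IRAK4-KD against IRAK4-KD. At an unadjusted p under 0.05 there were 1 (Ntf3), 0, 1 (Ntrk3) and 2 members (Ntrk3 and Vgf) in these comparisons, beside 11.4%, 5.55%, 3.8% and 8.63% of all genes. The 2 groups did not overlap in 0, 1 (Ntrk3), 2 (Ntf3 and Ntrk3) and 2 members (Ntrk3 and Vgf), beside 5.26%, 9.63%, 11.2% and 8.74% of all genes. An exact permutation test gave Ntrk3 and Vgf in MRL-IRAK4-KD against IRAK4-KD a two-sided p of 0.0286, the smallest that 4 libraries against 3 allow, and of 0.1, again the smallest possible, without the 2 libraries that stand apart. DESeq2 called 1 member, Ntrk3, in that comparison, beside 0.743% of all genes, and none elsewhere, and limma-voom called 0. The interaction, which asks whether the difference between MRL and MRL-IRAK4-KD itself differed from that between C57BL/6 and IRAK4-KD, had 0 members called (0.00263% of all genes) and 0 at an unadjusted p under 0.05 (4.17% of all genes). Its largest values were −0.42 for Vgf, 0.25 for Ntrk2 and 0.21 for Ntrk3.

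Transcripts of Bdnf differ in their 5′ exon and share the exon that holds all or most of the coding sequence. The annotated coding length is 747 bases except in Bdnf-201 (771) and Bdnf-202 (867). All 11 end at the same base, 109727007 on chromosome 2 (mm10, plus strand), and they start at 9 positions between 109674700 and 109709383. The choice of start site is known to decide how a neuron's activity reaches the gene, and the promoter before the start of Bdnf-209, the exon usually numbered IV, is the classic target of calcium signalling through CREB. That promoter and the one before Bdnf-201, the outermost start, are shown because the shares of these transcripts are followed group by group. The sequences are the 250 bases before each start, plus strand, from RefSeq on GRCm38.p6, at chr2:109692186-109692435 and chr2:109674450-109674699, and the capitals mark a variant of the cyclic AMP response element.
Bdnf-209 promoter: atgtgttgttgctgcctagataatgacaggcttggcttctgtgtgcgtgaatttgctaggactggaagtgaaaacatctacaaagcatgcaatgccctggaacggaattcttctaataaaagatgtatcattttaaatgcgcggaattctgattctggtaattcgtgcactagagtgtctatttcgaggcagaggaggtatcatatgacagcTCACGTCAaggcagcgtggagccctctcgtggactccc
Bdnf-201 promoter: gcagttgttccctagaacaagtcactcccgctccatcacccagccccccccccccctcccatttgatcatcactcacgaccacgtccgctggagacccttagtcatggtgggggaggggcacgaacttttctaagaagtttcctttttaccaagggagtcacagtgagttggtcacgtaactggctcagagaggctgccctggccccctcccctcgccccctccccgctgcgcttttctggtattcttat
The motif TCACGTCA, searched on both strands (TGACGTGA on the other), starts at position −38 relative to the start site of Bdnf-209. It was found in no other of the 7 Bdnf promoters available. The starts of Bdnf-205 and of Bdnf-207, Bdnf-208 and Bdnf-210 had no promoter sequence to search. The motif occurs in 115 of all 32851 mouse promoters of the same length (0.35%). The palindromic form TGACGTCA occurs in 1.55% of them and in none of the 7 Bdnf promoters. A match describes the letters and does not show a site in use.

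The share of each transcript among the Bdnf counts varied widely between mice of the same group. Bdnf-205, which starts at 109693563, downstream of Bdnf-209, was the largest form in most libraries, at 27.6–37.5% in MRL, 28.2–41.2% in C57BL/6 and 35.0–37.1% in IRAK4-KD. Bdnf-209, the exon IV form, took 28.3, 21.6, 32.9 and 26.4% of Bdnf counts in MRL. It took 14.8, 23.5, 17.7 and 1.48% in MRL-IRAK4-KD, 19.0, 36.1 and 19.7% in C57BL/6, and 15.5, 17.4 and 14.9% in IRAK4-KD. Shares in MRL lay above those in MRL-IRAK4-KD but for MRL replicate 2 and MRL-IRAK4-KD replicate 2, whose values crossed. The means were 27.3 ± 4.66% and 14.3 ± 9.31%, a difference of 12.96 percentage points with an exact permutation p of 0.0571 (two-sided, n = 4 and 4), or 0.8 after Benjamini-Hochberg adjustment over the 28 share tests. Leaving out 1 library at a time moved the difference between 8.67 and 16.0 points, the lowest being without MRL-IRAK4-KD replicate 4 (exact permutation p 0.0857) and the highest without MRL-IRAK4-KD replicate 2 (exact permutation p 0.0286, the only setting under 0.05). IRAK4-KD differed from C57BL/6 by −8.99 points, every library of the one below every library of the other, at the smallest p an exact permutation test of 3 against 3 allows, 0.1. Without the library labelled IRAK4-KD replicate 3 this difference was −8.46 points with an exact permutation p of 0.4, and without C57BL/6 replicate 2 it was −3.42 points with an exact permutation p of 0.2.

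Bdnf-201, from the outermost start site, had its highest mean in IRAK4-KD, at 27.5 ± 3.12% against 13.01 ± 11.6% in C57BL/6, 15.7 ± 8.97% in MRL-IRAK4-KD and 17.6 ± 4.44% in MRL. MRL-IRAK4-KD differed from IRAK4-KD by −11.8 points with an exact permutation p of 0.0571, and by −7.28 points, p 0.2 in the same exact test, without the 2 libraries that stand apart. C57BL/6 alone ran from 2.33% in replicate 2, the library with the most Bdnf-209, to 25.4% in replicate 1. In MRL-IRAK4-KD replicate 4 the makeup of Bdnf was unlike that of any other library: Bdnf-210, which starts at 109675897, took 81.0% of its counts against 7.77–25.1% elsewhere, and Bdnf-205 only 13.7%. The total Bdnf level of that library, 47.4 CPM, lay among the others. By transcript counts, edgeR called 0 of the 10 tested Bdnf transcripts in any comparison (0.0218%, 0.00285%, 0.0313%, 0.0228% and 0.0123% of 105421 transcripts called in the 4 comparisons and the interaction), and none had an unadjusted p under 0.05. The log2 difference of Bdnf-209 between MRL and MRL-IRAK4-KD was 0.88 ± 0.56 with an adjusted p of 0.640 (edgeR), and that of Bdnf-210 was −1.24 ± 0.61 with an adjusted p of 0.616. Without MRL-IRAK4-KD replicate 4 these were 0.52 ± 0.29 and −0.04 ± 0.35, with adjusted p of 0.876 and 1 (edgeR). The authors' counter divides reads of the shared exon by the coverage of the short 5′ exons, so the shares are estimates from part of the reads.

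**Figure D3:**
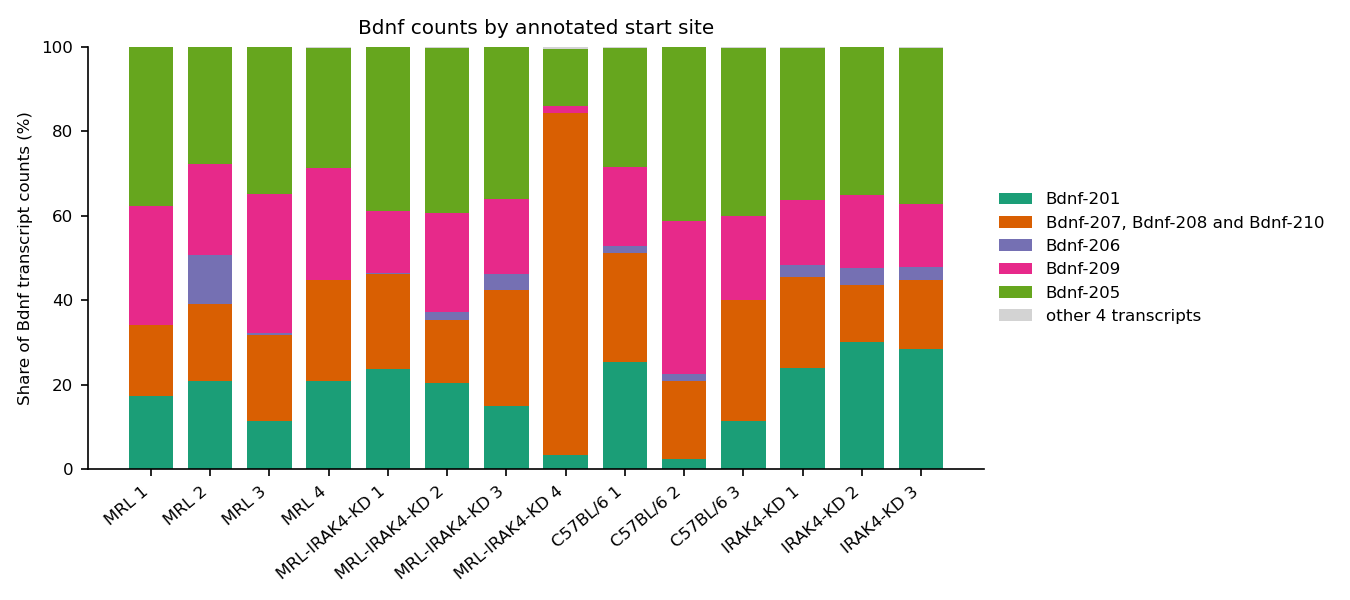
Share of Bdnf counts, in percent, that each group of transcripts with the same start site took in each of the 14 libraries. MRL-IRAK4-KD replicate 4 is filled mostly by 1 start site (81.1% against 13.6–28.8% in the others), and the Bdnf-209 start takes 21.6–32.9% in MRL and 1.48–23.5% in MRL-IRAK4-KD.

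Ntrk2 yields a full TrkB receptor with a kinase domain and a truncated TrkB that lacks it and is known chiefly from astrocytes. Ntrk2-201 (coding length 2463 bases, 18 exons) encodes the kinase form and Ntrk2-202 (coding length 1428 bases, 12 exons) the truncated form. The 2 share their first 1393 coding bases and then part at a splice site. The sequences around that point, chromosome 13, plus strand, mm10 with GENCODE M21, are shown because they separate the 2 proteins: lower case is the last 30 shared coding bases, and the capitals are the first 35 bases particular to each form, at chr13:58932023-58932057 for Ntrk2-202 and chr13:58985802-58985836 for Ntrk2-201.
Ntrk2-202: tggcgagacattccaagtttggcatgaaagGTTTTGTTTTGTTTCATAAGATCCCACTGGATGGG
Ntrk2-201: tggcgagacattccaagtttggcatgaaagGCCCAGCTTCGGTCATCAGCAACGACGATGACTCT
After the split, the truncated form has 35 coding bases, or 11 whole codons, and the kinase form 1070 coding bases, or 356 whole codons.

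The kinase and truncated forms took similar parts of the Ntrk2 counts in every group, and per transcript length the kinase form, which is the longer, had 34.9–48.0%. Among counts that could be given to either form, the kinase form had 50.1, 48.1, 50.5 and 41.4% in MRL and 45.8, 51.1, 50.2 and 54.1% in MRL-IRAK4-KD. It had 44.5, 47.8 and 47.1% in C57BL/6 and 47.9, 46.9 and 51.2% in IRAK4-KD. MRL replicate 4 was lowest and MRL-IRAK4-KD replicate 4 highest, and the groups overlapped. The means were 47.5 ± 4.21% in MRL and 50.3 ± 3.43% in MRL-IRAK4-KD, a difference of −2.80 percentage points with an exact permutation p of 0.371, and the other comparisons had exact permutation p of 0.657, 0.4 and 0.543 (adjusted 0.914). Ntrk2-202 had a log2 difference of 0.26 ± 0.15 and Ntrk2-201 one of 0.12 ± 0.10 between MRL and MRL-IRAK4-KD, with adjusted p of 0.616 and 0.736 (edgeR). No Ntrk2 transcript was called in any comparison, and the only one with an unadjusted p under 0.05 was Ntrk2-206, a form with at most 10 counts in a library (MRL-IRAK4-KD against IRAK4-KD, adjusted p 0.693, edgeR).

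**Figure D4:**
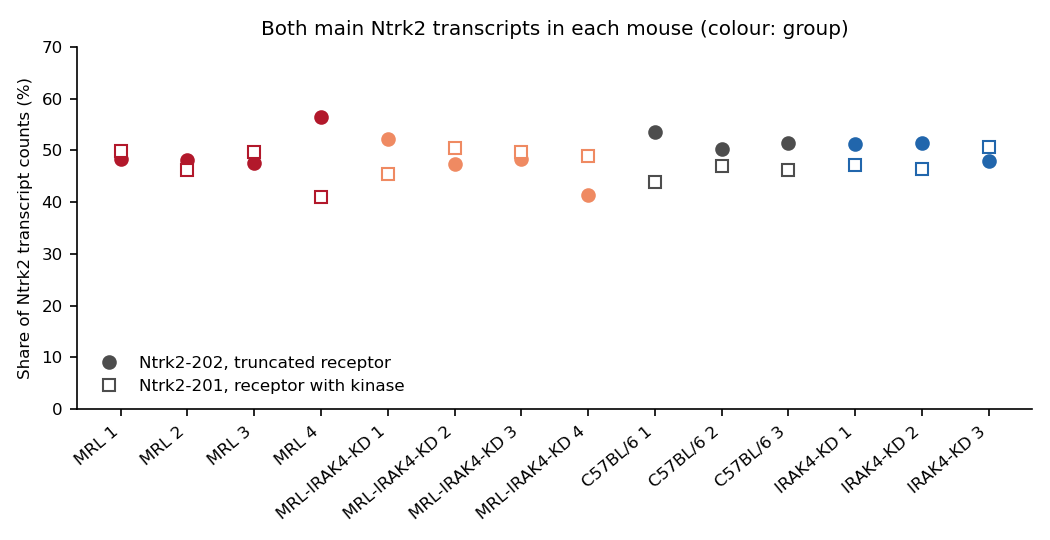
Shares of Ntrk2 counts, in percent, taken by the truncated form Ntrk2-202 (circles) and the kinase form Ntrk2-201 (squares) in each of the 14 libraries, coloured by group. In most libraries both lie near 50%, and MRL replicate 4 has the widest gap, with 56.4% truncated and 40.9% kinase.

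The other neurotrophins and sorting receptors, 7 genes, included none that edgeR called in any comparison. Sorcs1, a relative of sortilin, was at 14.1, 20.6, 17.6 and 18.3 CPM in MRL and at 10.7, 17.1, 12.3 and 5.07 CPM in MRL-IRAK4-KD. C57BL/6 lay between 11.5 and 13.4 CPM and IRAK4-KD between 8.13 and 15.8 CPM. MRL was thus above C57BL/6 without overlap (log2 difference 0.51 ± 0.31, adjusted p 0.938, edgeR) and 0.64 ± 0.29 above MRL-IRAK4-KD, with 1 pair of values crossed and an adjusted p of 0.439 (edgeR). The latter difference was 0.41 ± 0.21 with an adjusted p of 0.608 (edgeR) without MRL-IRAK4-KD replicate 4. Ntf5, encoding NT-4, was at 0.995 CPM in MRL-IRAK4-KD replicate 4 and at 0.059–0.319 CPM elsewhere. Between MRL and MRL-IRAK4-KD, Sorcs2, Sorcs3 and Sorl1 had log2 differences of 0.02, −0.13 and 0.06.

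Of 13 genes listed as induced in neurons by neurotrophins or neuronal activity, 11 were higher in MRL than in MRL-IRAK4-KD. Their median log2 difference was 0.65 beside 0.00 over all genes tested. edgeR called none of the 13 at an adjusted p under 0.05, and 7 had an unadjusted p under 0.05, beside 11.4% of all genes. The list was chosen with earlier results of these data known. It is not specific to neurotrophins, and a response to them was not tested. Fos, an immediate early transcription factor, was at 10.4, 86.2, 34.5 and 11.9 CPM in MRL and at 4.78, 7.05, 8.36 and 2.99 CPM in MRL-IRAK4-KD. All MRL values lay above all MRL-IRAK4-KD values, with MRL replicate 2 far above the rest, while C57BL/6, at 8.99–21.8 CPM, overlapped MRL alone and IRAK4-KD, at 6.20–10.5 CPM, overlapped both. The log2 difference for Fos was 2.63 ± 0.59 with an adjusted p of 0.247 (edgeR). Npas4, a transcription factor that drives the Bdnf exon I and IV promoters in active neurons, was at 16.0, 49.6, 20.98 and 14.8 CPM in MRL and at 8.29, 11.4, 10.5 and 10.6 CPM in MRL-IRAK4-KD, again without overlap. Its log2 difference was 1.32 ± 0.31 with an adjusted p of 0.276 (edgeR).

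The call on these induced genes depended on the tool. DESeq2 called 6 of the 13 (Arc, Egr1, Egr2, Fos, Npas4 and Nr4a1), with adjusted p of 0.00785 for Fos and 0.00657 for Npas4, beside 1.04% of all genes. limma-voom called 0, beside 0.609% of all genes, and had 8 at an unadjusted p under 0.05, beside 15.3%. Without MRL-IRAK4-KD replicate 4, all 13 were higher in MRL with a median of 0.87 and 0 called by edgeR, and without both libraries that stand apart the median was 0.86. Against C57BL/6, MRL was higher in 13 of 13 with a median of 0.53. Of these, 2 had an unadjusted p under 0.05 (edgeR), beside 5.55% of all genes. IRAK4-KD was higher than C57BL/6 in 5 of 13 with a median of −0.27, and MRL-IRAK4-KD exceeded IRAK4-KD in 3 of 13 with a median of −0.18. The medians over all genes tested were −0.0046, −0.0079 and 0 in these comparisons. Neocortical markers also differed between these libraries, at 205–401 CPM in MRL, 185–260 in MRL-IRAK4-KD, 181–207 in C57BL/6 and 152–226 in IRAK4-KD. The mean was highest in MRL for 5 of the 7 neocortical genes, none was at 0, and 4 were highest of all in MRL replicate 2, the library with the most Fos and Npas4. Their part in the result was not tested. Bdnf, also known to be induced by neuronal activity, stood at a log2 difference of −0.03 between MRL and MRL-IRAK4-KD over all its transcripts. Its transcripts went both ways: Bdnf-209 stood at 0.88 ± 0.56 and Bdnf-210 at −1.24 ± 0.61 (adjusted p 0.640 and 0.616, edgeR). Without MRL-IRAK4-KD replicate 4 these were 0.52 ± 0.29 and −0.04 ± 0.35. Neuronal activity was not measured.

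**Figure D5:**
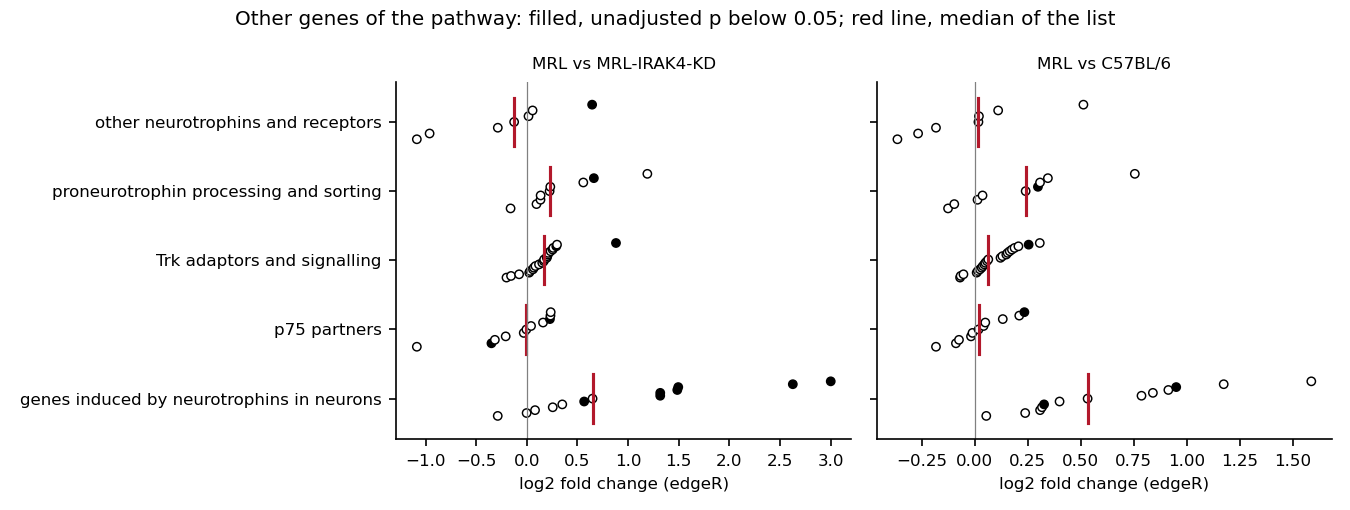
Log2 fold change of each gene of the 5 pathway lists in MRL against MRL-IRAK4-KD (left) and against C57BL/6 (right, another scale), with 1 point per gene, filled at an unadjusted p under 0.05, and a red line at the list median. On the left the induced genes have a median of 0.65, the processing genes 0.22, the Trk adaptors 0.17 and the p75 partners −0.00, and none of the genes was called by edgeR.

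The other lists cover genes that process neurotrophins and pass on their signal. Of 9 genes for proneurotrophin processing, 8 were higher in MRL than in MRL-IRAK4-KD with a median log2 difference of 0.22. The smallest p belonged to Pcsk1, a convertase of regulated secretory granules (0.66 ± 0.29, adjusted p 0.439, edgeR). Without MRL-IRAK4-KD replicate 4 the median was 0.08 and none had an unadjusted p under 0.05. Of 22 Trk adaptors and downstream kinases, 19 were higher with a median of 0.17, or 14 of 22 and 0.05 without that library, and the smallest p belonged to the adaptors Shc3 (0.88 ± 0.32, adjusted p 0.437, edgeR) and Shc1 (0.29, adjusted p 0.439). Of 11 tested p75NTR partners 5 were higher, with a median of −0.00, and Bex3 (−0.35) and Lingo1 (0.23) had the smallest p. They stood at −0.16 and 0.18 without MRL-IRAK4-KD replicate 4, where Bex3 was at 193.9 CPM. In all 5 lists together edgeR called 0 genes in any comparison.

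Over the 14 libraries some genes followed a member closely. The genes whose log2 level correlated best, of 13865 candidates, were Commd10 for Bdnf (r = 0.85), Chgb for Ntf3 (0.93), Arhgap31 for Ntrk2 (0.98), Star for Ntrk3 (0.90), Cox11 for Ngfr (0.93), Lrrn1 for Sort1 (0.97) and Jund for Vgf (0.96). Chgb encodes chromogranin B, a protein of secretory granules, and Jund a transcription factor of the AP-1 family. Without MRL-IRAK4-KD replicate 4 these correlations were 0.85, 0.91, 0.96, 0.91, 0.92, 0.96 and 0.95. Among the members themselves the strongest over 14 libraries were Ngfr with Sort1 (0.75, or 0.59 over 13 libraries) and Ntrk3 with Vgf (−0.69, or −0.66 over 13 libraries), while Ntrk2 with Sort1 was 0.63 over all libraries and 0.22 over 13, and Ntf3 with Sort1 was 0.02 and 0.63. The libraries differed in depth and in markers of other tissues. The part of these differences in the correlations was not tested, and the correlations are descriptions.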

How the data were processed

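Hippocampal RNA of 14 mice was sequenced, and the authors deposited counts per gene and per transcript. The submitters' notes name HISAT2 2.1.0, SAMtools 1.9 and StringTie 2.1.0 with mm10, and the libraries held 1.40–2.08 counts per sequenced read, for a reason that was not tested. The submitters also deposited library concentrations by qPCR in nM (another unit), used here only to describe libraries. Identifiers were matched to GENCODE M21, and the 26345 rows without an Ensembl identifier (0.0254–0.188% of counts) stayed out of tests. Groups came from the labels, and nothing in them ties 2 libraries to 1 mouse.

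Genes with at least 10 counts over 14 libraries (38070) were tested with edgeR 4.0.16 (R 4.3.3; TMM, robust quasi-likelihood, 4 groups in 1 model), with Benjamini-Hochberg adjustment over all of them, and transcripts likewise (105421). The procedure was tested on simulated counts with genes changed in MRL. Between MRL and MRL-IRAK4-KD it recovered 8% of genes at a log2 change of 0.5, 59% at 1 and 96% at 2. A missing call therefore says little about changes near 0.5 or smaller. Levels are CPM, and TPM was computed from the transcript counts. Transcript shares averaging at least 5% were compared by exact two-sided permutation. Genes named from each list are those called and the 2 with the smallest p between MRL and MRL-IRAK4-KD. Likeness is Pearson's r of log2(CPM + 0.1) among genes with a mean of at least 1 CPM. DESeq2 1.42.0, limma-voom with quality weights (limma 3.58.1), other scalings and filters, a replicate block and leaving out libraries were alternatives. The members and lists were chosen with earlier results of these data known. For the lists, the fits by other tools and without the 2 libraries were chosen after seeing the data. Of the symbols in the pathway lists, Ngfrap1 matched no row under that name. Some genes of the lists are counted but not reported by name here.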

Additional observations from a re-analysis of the deposited data

Results flagged for a closer look

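In 6 of the 28 sets of 4 libraries examined, 1 library lay far from the other 3, by Dixon's criterion at the 95% level, which chance alone meets in about 1 set in 20. In MRL-IRAK4-KD replicate 4, Ntrk2 was at 343 CPM (456–471 in the other 3), Sort1 at 367 CPM (551–568) and Vgf at 174 CPM (125–133). In the same library Bdnf-205 took 13.7% of Bdnf counts (36.0–39.2% in the other 3) and Bdnf-210 took 81.0% (14.01–15.8%). That library also had the fewest counts per sequenced read, 1.40, the lowest library concentration by qPCR, 13.48 nM against 23.49–27.55 nM, and the most choroid plexus RNA, and the part of these in the values was not tested. In MRL replicate 4, Ntrk2-202 took 56.4% of Ntrk2 counts against 47.5–48.4% in the other 3 MRL libraries.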

How the results depend on the processing

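The number of members called stayed at the reported value in 123 of 124 recomputations, the exception being DESeq2, which called 1 member (Ntrk3) in MRL-IRAK4-KD against IRAK4-KD. The number of Bdnf and Ntrk2 transcripts called stayed at 0 in 90 of 90. Over all genes, the counts called in the 4 comparisons and the interaction were 37, 0, 56, 28 and 1 by edgeR, 395, 197, 166, 283 and 59 by DESeq2, and 232, 67, 145, 266 and 24 by limma-voom. Fitting only the groups compared gave 18, 0, 95 and 6, and the interaction had 4 calls without the filter. Leaving out 1 library at a time gave 25–52, 0–21, 33–106, 11–65 and 1–15, and without MRL-IRAK4-KD replicate 4 the counts were 52, 21, 106, 65 and 15. The replicate numbers did not pair the libraries: same-numbered libraries correlated at −0.10 to 0.29 between MRL and MRL-IRAK4-KD, with 2 of 4 correlating best with their own number, and the replicate block gave 34, 0, 48, 23 and 2 calls, left 0 members called, and put Ntrk3 in MRL-IRAK4-KD against IRAK4-KD at −0.35 with an adjusted p of 0.573 (edgeR). Member differences near 0 took the other sign under some settings; for Bdnf between MRL and MRL-IRAK4-KD they ranged from −0.13 to 0.13. Of the members, Ngfr had the fewest counts, 271–998 per library. The cause of the differences between tools was not tested.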
